A study of Mus musculus with 18 samples.

Results

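The receptors for the constant part of IgG in mouse macrophages are encoded by Fcgr1, Fcgr2b, Fcgr3 and Fcgr4, and Fcer1g encodes the signalling chain shared by the activating ones. Chromatin accessibility around these 5 genes was followed here in bone marrow-derived macrophages (BMDMs). A peak was taken as a member when it overlapped the body of one of these genes extended by 25 kb on each side, with gene positions from GENCODE M1 on mm9. This rule gave 93 of the 194284 peaks of the union table, 17 in the window of Fcgr1, 26 in that of Fcgr2b, 20 in that of Fcgr3, 28 in that of Fcgr4 and 20 in that of Fcer1g, and all 93 passed the filter on low counts. The windows of Fcgr2b, Fcgr4 and Fcgr3 lie next to each other on chromosome 1 and share peaks, so that 5 peaks of the Fcgr2b window, 18 of the Fcgr4 window and 13 of the Fcgr3 window were also in a neighbouring window. Of the 93 peaks, 22 were in the authors' promoter table and 71 in their distal table, and they were 500 to 8199 bp wide (median 1137 bp, against 956 bp for all peaks).

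Accessibility was measured by ATAC-seq, in which a transposase cuts and tags open chromatin, in 18 libraries from Il10-/- BMDMs on the C57BL/6J background. Marrow of 3 male mice, 12 weeks old, was grown with L929-conditioned medium, and each of the 6 groups holds 3 libraries, numbered 1 to 3 in the labels, although the sources do not tie a number to a mouse. The groups were left without LPS and untreated (Unstimulated), treated with 500 nM (+)-JQ1 (JQ1) or with 10 ng/mL IL-10 (IL10), or received the same 3 treatments and then 50 ng/mL LPS for 4 hours (LPS, LPS_JQ1 and LPS_IL10), with PBS in place of LPS in the other arms and 12 hours of treatment beforehand. The study's methods name a vehicle control before LPS, and untreated, unstimulated cells as an additional control. The sample titles call both groups untreated, and any part of the vehicle in the differences was not tested. (+)-JQ1 is a small molecule that displaces BET bromodomain proteins from acetylated histones, LPS is the bacterial ligand of TLR4, and IL-10 is an anti-inflammatory cytokine. The Il10-/- cells make none of it themselves, and no wild-type cells enter the values given here. Counts in peaks ranged from 12020526 to 25908198 per library (median 19819132.5). A level is given in CPM, the count scaled to library depth, here with factors from the trimmed mean of M-values (TMM), a difference as a log2 difference ± its standard error (SE) from edgeR's quasi-likelihood test, and a peak was called at an adjusted p (Benjamini-Hochberg over 194230 tested peaks) below 0.05. In these bulk libraries a smaller share of cells with an open site and less opening per cell cannot be told apart. All libraries of replicate 1 were run on lane 5 and all of replicate 3 on lane 6, but those of replicate 2 were split, the LPS arms on lane 6 and the others on lane 5, so lane and LPS are mixed for that number. A within-lane difference of LPS therefore rests on a single library on one side. This is the LPS library of replicate 1 on lane 5 and the Unstimulated library of replicate 3 on lane 6.

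FcγRI (Fcgr1) binds monomeric IgG with high affinity, whereas FcγRIII (Fcgr3) and FcγRIV (Fcgr4) bind immune complexes with lower affinity. All 3 rely on the common gamma chain (Fcer1g), whose ITAM recruits Syk and starts phagocytosis and cytokine release. FcγRIIB (Fcgr2b) is the inhibitory member, with an ITIM that recruits the phosphatase SHIP-1 (Inpp5d), and the balance of activating and inhibitory receptors sets how a macrophage answers immune complexes. Fcgr1 is a textbook target of interferon-γ, and its promoter carries a GAS element, a short palindrome found in interferon-responsive promoters.

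The proximal promoters are shown first, since the report turns on how the chromatin at and around them changed. Each runs from 250 bases before to 50 after the RefSeq start (GRCm38.p6 sequence, located on mm9 by an exact match). Capitals mark matches, on either strand, to 5 motifs: a GAS palindrome (TTCNNNGAA), an ISRE core (GAAA and GAAA with 2 bases between them), an AP-1 site (TGANTCA), a PU.1 box (GAGGAAGT) and a kappaB site (GGGA and CC with 4 bases between them).
Fcgr1, mm9 chr3:96097843-96098142, minus strand: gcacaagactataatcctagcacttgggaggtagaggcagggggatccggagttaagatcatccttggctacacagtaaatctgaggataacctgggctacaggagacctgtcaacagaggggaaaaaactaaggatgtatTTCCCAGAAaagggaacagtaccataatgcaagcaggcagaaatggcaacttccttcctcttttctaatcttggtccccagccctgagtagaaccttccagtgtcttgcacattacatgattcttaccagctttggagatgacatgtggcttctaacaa
Fcgr4, mm9 chr1:172948807-172949106, plus strand: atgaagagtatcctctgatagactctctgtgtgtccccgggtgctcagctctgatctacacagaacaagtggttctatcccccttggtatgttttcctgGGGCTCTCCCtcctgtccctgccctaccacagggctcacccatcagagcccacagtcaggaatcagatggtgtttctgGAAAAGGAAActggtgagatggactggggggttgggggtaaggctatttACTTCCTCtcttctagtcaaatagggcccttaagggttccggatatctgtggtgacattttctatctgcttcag
Fcgr3, mm9 chr1:172989485-172989784, minus strand: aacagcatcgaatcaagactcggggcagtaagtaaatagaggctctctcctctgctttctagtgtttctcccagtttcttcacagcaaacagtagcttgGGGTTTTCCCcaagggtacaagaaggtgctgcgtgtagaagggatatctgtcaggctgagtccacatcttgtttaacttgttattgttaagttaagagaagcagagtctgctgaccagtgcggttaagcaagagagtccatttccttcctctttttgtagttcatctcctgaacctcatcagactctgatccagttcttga
Fcgr2b, mm9 chr1:172906153-172906452, minus strand: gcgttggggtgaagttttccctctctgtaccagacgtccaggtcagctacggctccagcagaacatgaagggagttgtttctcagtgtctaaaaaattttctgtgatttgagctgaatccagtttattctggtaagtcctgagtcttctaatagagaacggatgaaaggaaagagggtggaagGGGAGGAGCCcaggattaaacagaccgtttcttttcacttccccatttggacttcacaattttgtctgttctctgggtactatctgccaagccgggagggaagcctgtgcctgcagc
Fcer1g, mm9 chr1:173164431-173164730, minus strand: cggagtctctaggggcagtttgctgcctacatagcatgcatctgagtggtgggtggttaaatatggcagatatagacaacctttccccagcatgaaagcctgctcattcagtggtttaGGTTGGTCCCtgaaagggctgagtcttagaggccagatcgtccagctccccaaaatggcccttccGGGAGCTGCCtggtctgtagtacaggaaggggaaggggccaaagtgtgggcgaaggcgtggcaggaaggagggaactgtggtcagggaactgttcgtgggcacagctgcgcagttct
The Fcgr1 promoter held 1 GAS match, TTCCCAGAA, whose first base lies 109 bases before the start, and was the only one of the 5 with it. GAS matches were found in 7.58% of 45975 mouse promoters of the same length. The Fcgr4 promoter held a kappaB match at -151, an ISRE core at -73 and a PU.1 box at -24, the Fcgr3 promoter a kappaB match at -151, the Fcgr2b promoter one at -67 and the Fcer1g promoter 2, at -132 and -67. KappaB matches were present in 22.8% of all promoters, ISRE cores in 3.64%, PU.1 boxes in 2.96% and AP-1 sites in 6.49%, the last in none of these 5. None of these matches overlap each other, and a match is a description of the letters and not of binding.

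Peaks are named by the gene whose start is nearest and by the distance in kb of the peak's centre from that start, positive in the direction of transcription. All 5 genes had an accessible promoter in every group. Per kb of peak, and averaged over the 18 libraries, the level was 18.9 CPM/kb at the Fcer1g promoter peak (+0.6), 17.4 at Fcgr1 (+0.2), 8.34 at Fcgr4 (+0.1), 6.11 at Fcgr2b (-1.3) and 3.74 at Fcgr3 (+4.2). These values stood at percentiles 82.4, 81.4, 73.9, 70.7 and 62.9 of all promoter peaks, whose median was 2.43 CPM/kb. The rule for a promoter peak took the strongest peak within 1 kb of any annotated start. For Fcgr3 this was a peak of 7219 bp over most of the gene. It does not reach the RefSeq start, so its level and percentile are not those of the start. The narrow peak on the RefSeq start (Fcgr3 +0.0, 961 bp) held a median of 302.5 raw counts per library, against 344.5 at Fcgr1 +0.2 (1075 bp). It is described beside the broad peak. As a check of the cell type, 6 of 6 macrophage marker genes had a promoter peak (4.76 to 40.0 CPM/kb). Of the genes that mark other cells, 5 of 5 of B cells (0.967 to 5.10 CPM/kb), 3 of 4 of T cells (up to 17.7 CPM/kb, at Lck), 2 of 3 of NK cells, 3 of 4 of neutrophils, 1 of 4 of mast cells and 2 of 3 of fibroblasts had one as well. Some of these lists moved with the groups. The promoter peaks of the macrophage markers summed to 87.5 CPM/kb in Unstimulated, 149 in JQ1, 122 in IL10 and 105 in LPS, those of the T cell markers to 16.2 in Unstimulated and 26.2 in LPS, and those of the NK cell markers to 6.71 and 9.44. The neutrophil sum went from 8.15 in Unstimulated to 15.1 in LPS and 18.6 in LPS_IL10, mostly at Camp (2.81, 9.21 and 11.5 CPM/kb) and less at Elane (3.77, 4.03 and 4.89) and Mpo (1.56, 1.82 and 2.17), while Ly6g had no promoter peak. The part of these lists in the results was not tested.

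With LPS, more peaks were called higher than lower in each of the 5 windows. Against Unstimulated, 33 of the 93 peaks were called higher and 2 lower, 35.5% and 2.15%, where among all tested peaks 14.5% were higher and 10.8% lower, and the median log2 difference was 0.37 over the 93 peaks and -0.03 over all peaks. Called higher were 6 peaks in the Fcgr1 window, 11 at Fcgr2b, 5 at Fcgr3, 7 at Fcgr4 and 9 at Fcer1g, with shared peaks counted in each window. Among the peaks nearest the Fcgr3 start the calls were mixed, with Fcgr3 +14.5 and Fcgr3 +8.4 higher and Fcgr3 +9.7 and Fcgr3 +12.1 lower. Without replicate 2, 20 peaks were higher and 1 lower, and without replicate 1, 1 was lower.

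IL-10 alone raised 29 of the 93 peaks and lowered none, 31.2% against 7.97% higher and 3.56% lower among all peaks (median 0.32, all peaks -0.05). Fcgr2b had 14 of these, Fcgr4 8, Fcgr3 6, Fcgr1 4 and Fcer1g 3. At an unadjusted p below 0.05, 0 peaks were lower, and DESeq2 called none. The count of higher peaks was 18 without replicate 1, 10 without replicate 2 and 14 when loess offsets, which let the scaling depend on peak strength, took the place of TMM, and 1 peak was lower without replicate 3.

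JQ1 alone gave 12 higher and 6 lower peaks, 12.9% and 6.45%, close to the 9.33% and 3.29% among all peaks (median -0.04, all peaks -0.09). This split depended on the scaling, with 10 higher and 13 lower by total counts in peaks and 2 higher and 6 lower by loess offsets. It also changed without replicate 2, to 5 higher and 3 lower, and without replicate 3, to 2 lower.

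Under LPS, most peaks called with JQ1 were lower and most called with IL-10 higher, each against the same 3 LPS libraries. LPS_JQ1 against LPS gave 2 higher and 13 lower peaks, 2.15% and 14.0% against 2.07% and 3.67% among all peaks (median -0.09, all peaks -0.00), of which 7 of the lower ones lay at Fcgr2b and 3 each at Fcgr1, Fcgr3 and Fcgr4, with the 3 of Fcgr3 shared with Fcgr4. Without replicate 2, 1 was higher and 8 were lower. LPS_IL10 against LPS gave 27 higher and 2 lower peaks, 29.0% and 2.15% against 4.72% and 5.31% (median 0.40, all peaks -0.01). Here 17 of the higher peaks were at Fcgr2b, 10 at Fcgr4, 5 at Fcgr3, 2 at Fcgr1 and 1 at Fcer1g, and the 2 lower ones were both at Fcer1g, 1 of them remaining called without replicate 2. LPS_JQ1 against LPS_IL10 gave 3 higher and 33 lower peaks, 3.23% and 35.5% against 4.69% and 5.03% (median -0.46, all peaks 0.00).

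**Figure D1:**
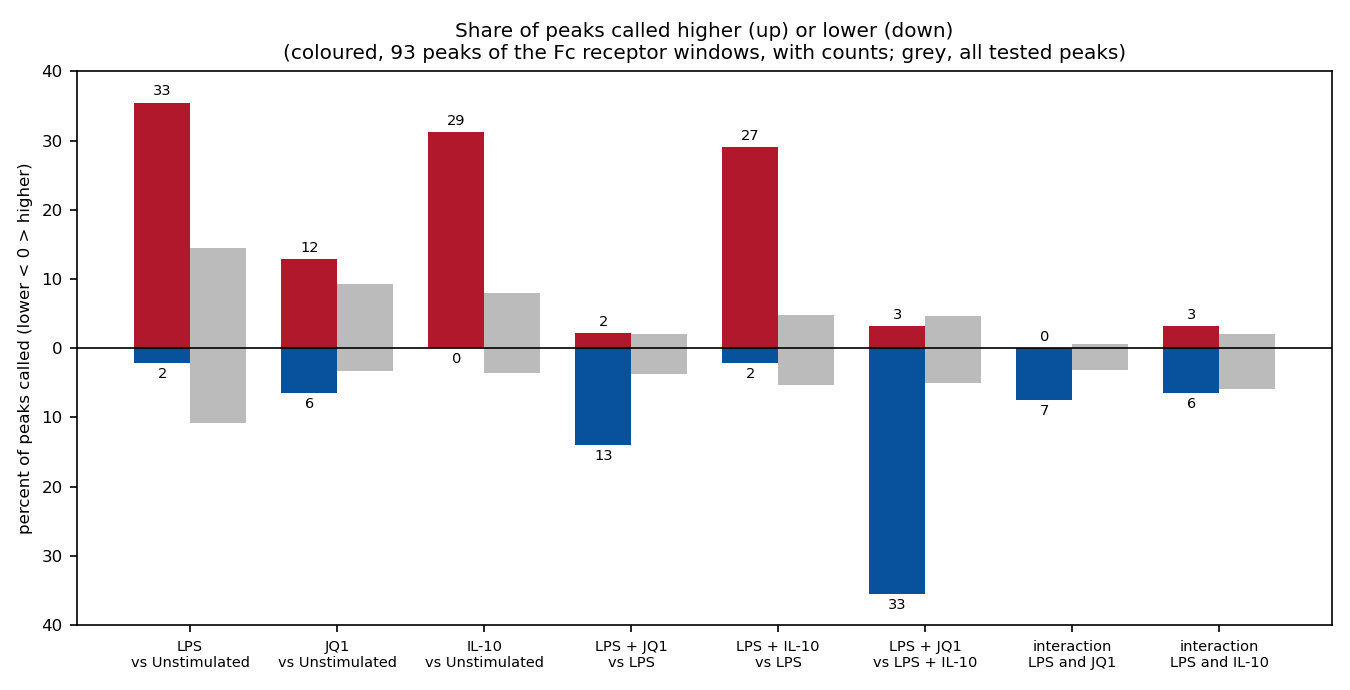
Percent of peaks called higher (upward bars) or lower (downward bars) in each of the 8 comparisons on the x axis, for the 93 peaks of the 5 windows (coloured, with the number of peaks) and for all 194230 tested peaks (grey). The 29 peaks called higher with IL-10 and the 27 called higher with IL-10 under LPS stand above their grey bars, as do the 33 lower in LPS_JQ1 against LPS_IL10.

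At Fcgr1, the high-affinity receptor, a peak over the 3′ part of the gene rose with LPS and fell with JQ1 under LPS, and the start rose with IL-10. The peak of 8199 bp over the 3′ part of the gene and its downstream flank (Fcgr1 +9.5, mm9 chr3:96084332-96092531) measured 23.0, 22.9 and 25.6 CPM in Unstimulated and 55.4, 64.2 and 66.9 CPM in LPS. With JQ1 it measured 20.1, 15.7 and 18.3 CPM alone and 17.3, 19.7 and 18.8 CPM under LPS. With IL-10 the values were 34.7, 36.3 and 39.3 CPM alone and 92.9, 78.6 and 76.5 CPM under LPS. Every LPS library was above every Unstimulated library, every LPS_JQ1 library was below both, and the LPS_IL10 libraries were the highest of all 18. LPS raised it 2.61-fold (log2 difference 1.38 ± 0.14, adjusted p = 3.08e-15), with within-lane log2 differences of 1.27 on lane 5 and 1.35 on lane 6. JQ1 under LPS lowered it 3.33-fold (log2 difference -1.73 ± 0.14, adjusted p = 6.57e-19). IL-10 raised it alone (log2 difference 0.63 ± 0.14, adjusted p = 0.000865) and under LPS (log2 difference 0.41 ± 0.13, adjusted p = 0.025). JQ1 alone gave a log2 difference of -0.40 ± 0.14, adjusted p = 0.0427, which passed narrowly. Fcgr1 +9.5 lost the JQ1 call (-0.34 without replicate 2, -0.35 without replicate 3, -0.37 with DESeq2 size factors, -0.42 with only the groups compared), the IL-10 call (0.60 without replicate 2, 0.17 with loess offsets), and the LPS_IL10-against-LPS call (0.25 without replicate 1, 0.47 without replicate 2). It gained the LPS and IL-10 interaction call (0.40 with loess offsets).

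The effect of JQ1 on this peak was larger with LPS than without it, with an interaction of -1.33 ± 0.19, adjusted p = 4.71e-06. An interaction is the log2 difference of a treatment with LPS minus that without LPS. Its interaction with IL-10 was -0.21 ± 0.19, adjusted p = 0.565, which did not pass. The neighbouring peak Fcgr1 +14.4, in an exon of the histone gene Hist2h2bb, measured 2.54, 2.25 and 2.41 CPM in Unstimulated, 3.03, 3.70 and 5.38 in LPS and 1.77, 1.36 and 1.82 in LPS_JQ1. JQ1 lowered it alone (log2 difference -1.15 ± 0.28, adjusted p = 0.00184), with libraries at 1.37, 1.05 and 0.836 CPM, and under LPS (log2 difference -1.27 ± 0.24, adjusted p = 0.000101), while LPS raised it (log2 difference 0.73 ± 0.23, adjusted p = 0.0133). The groups did not overlap in any of these 3 comparisons. At Fcgr1 +14.4, the LPS call (0.74 without replicate 2, 0.49 without replicate 3, 0.51 by total counts) and the JQ1 call (-0.97 without replicate 3) were lost. It gained the LPS_IL10-against-LPS call (0.86 without replicate 3, 0.54 with only the groups compared).

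The start of Fcgr1 carries the GAS match shown above. Its peak (Fcgr1 +0.2, mm9 chr3:96097169-96098244) measured 13.4, 14.6 and 17.3 CPM in Unstimulated and 17.0, 16.9 and 15.4 in LPS, which overlap (log2 difference 0.12 ± 0.14, adjusted p = 0.573). In the IL-10 groups it measured 17.6, 19.7 and 25.7 CPM without LPS and 25.2, 21.4 and 20.7 CPM with LPS. Both were above their untreated groups with no overlap, and IL-10 raised it alone (log2 difference 0.48 ± 0.14, adjusted p = 0.0167) and under LPS (log2 difference 0.45 ± 0.14, adjusted p = 0.0243). With JQ1 it measured 19.4, 20.5 and 16.9 CPM alone and 16.3, 19.1 and 19.3 CPM under LPS, and neither difference passed (log2 difference 0.32 ± 0.14, adjusted p = 0.14, and log2 difference 0.15 ± 0.14, adjusted p = 0.642). LPS thus passed the test at +9.5 and not at +0.2, and the difference between the 2 peaks was not tested. Lost at Fcgr1 +0.2 were the IL-10 call (0.49 without replicate 2, 0.41 without replicate 3, 0.27 by total counts, 0.15 with loess offsets, 0.46 with only the groups compared) and the LPS_IL10-against-LPS call (0.39 without replicate 1, 0.50 without replicate 2, 0.46 without replicate 3). It gained the JQ1 call (0.51 without replicate 3) and the LPS_JQ1-against-LPS_IL10 call (-0.36 by total counts, -0.39 with loess offsets).

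**Figure D2:**
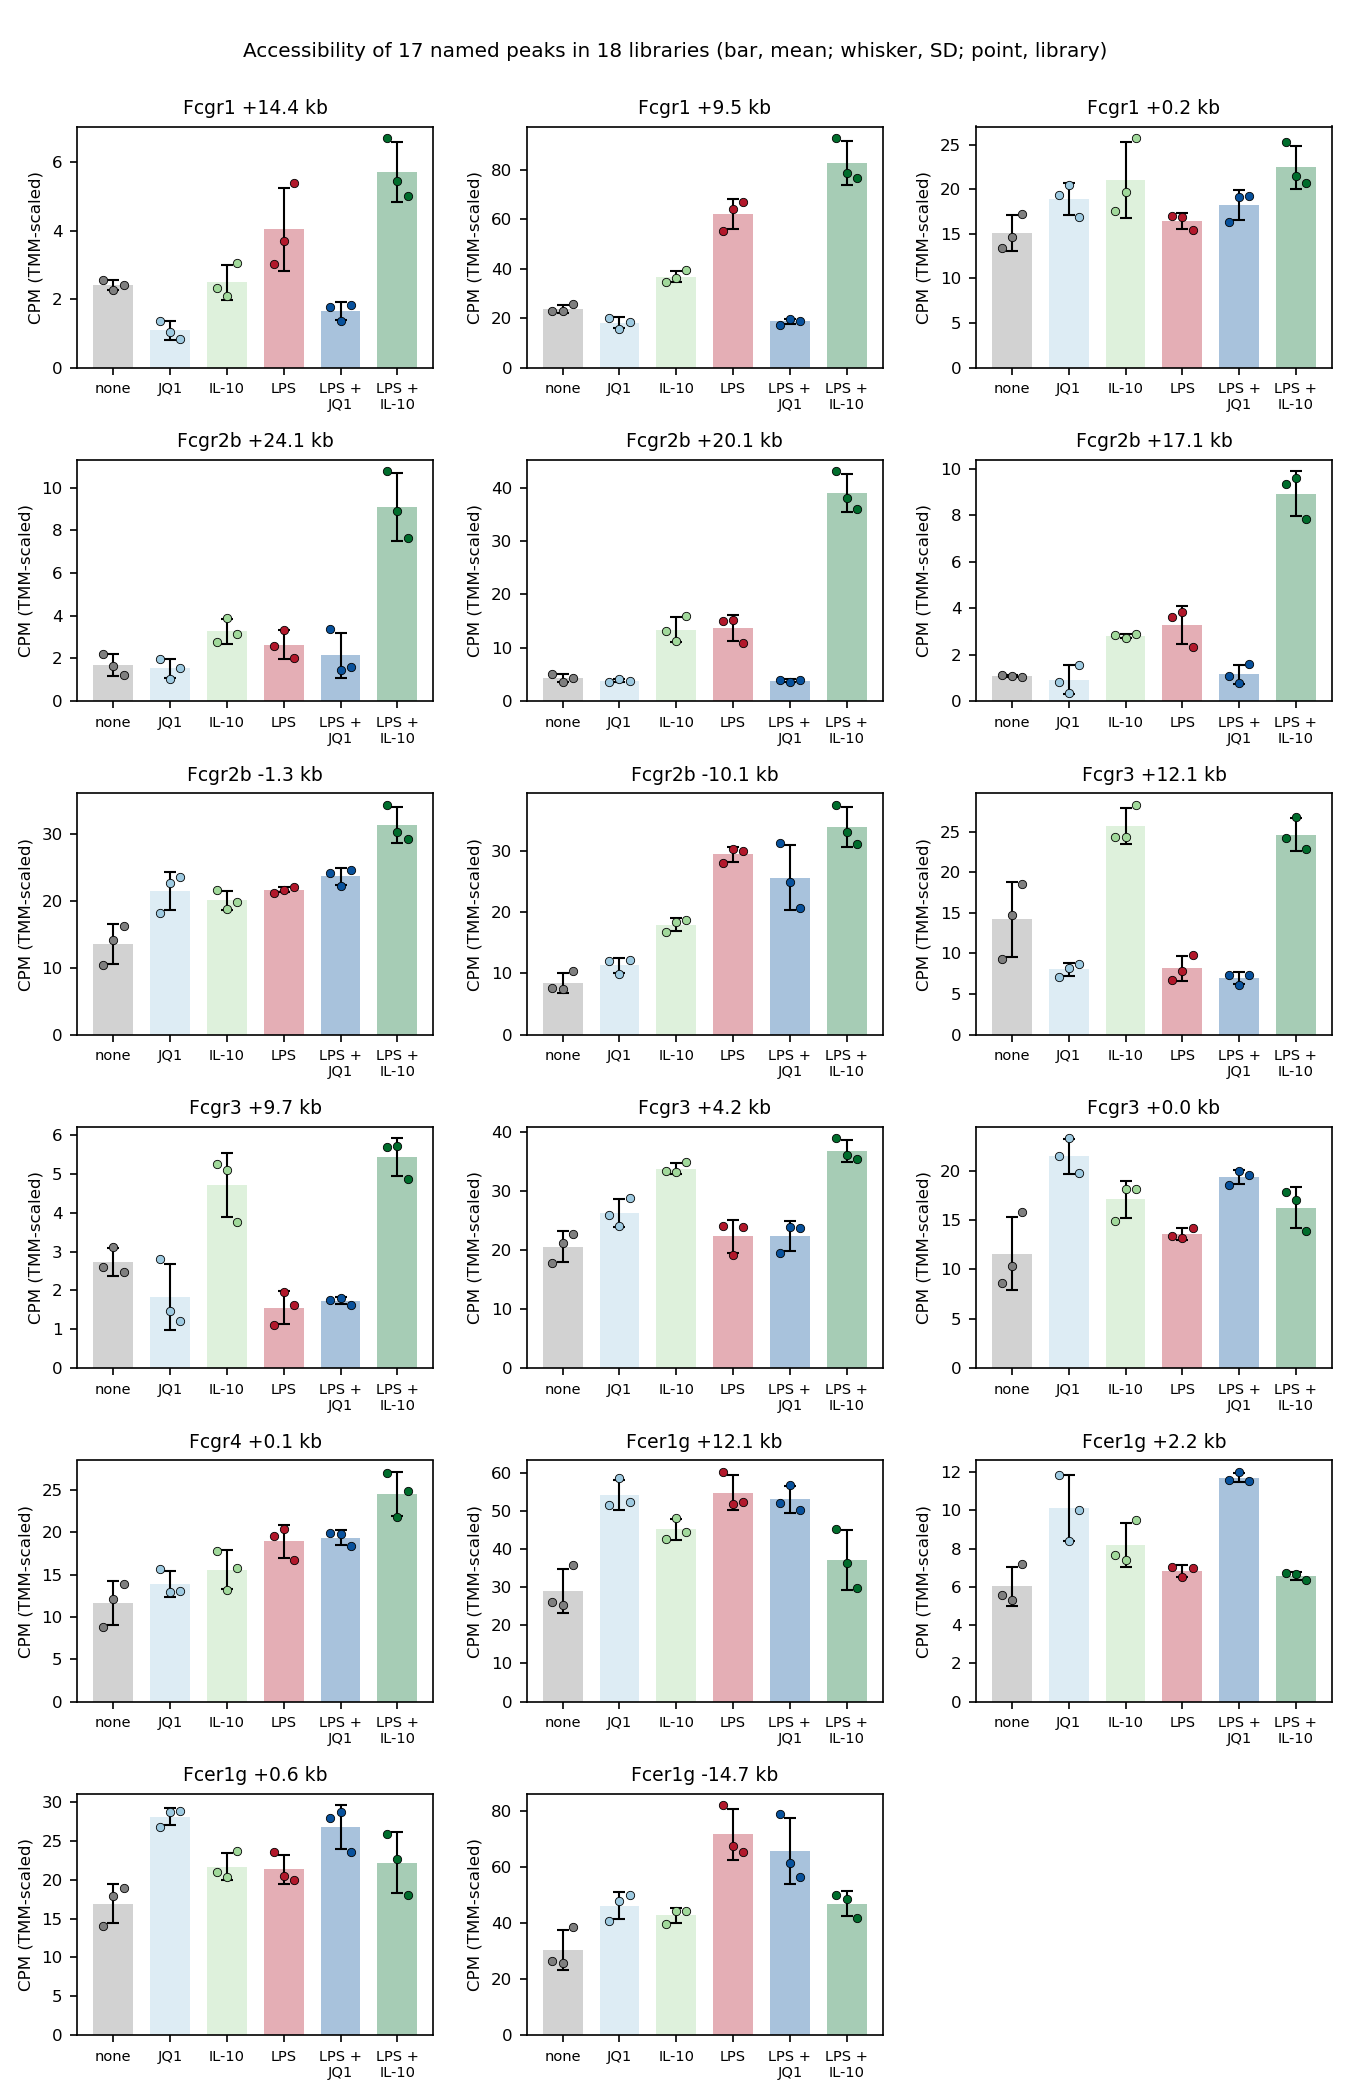
TMM-scaled CPM of the 17 named peaks in the 18 libraries by group, with bars for the mean, whiskers for the SD and 1 point per library; "none" is Unstimulated. Fcgr1 +9.5 falls from 62.2 CPM in LPS to 18.6 CPM in LPS_JQ1, Fcgr2b +20.1 reaches 39.1 CPM in LPS_IL10, and Fcgr3 +12.1 is highest in the IL-10 groups.

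Fcgr4 opened at its start with LPS, while its rise with IL-10 alone passed narrowly and was lost in several other settings. Fcgr4 +0.1 (mm9 chr1:172948126-172950204) measured 8.77, 12.1 and 13.9 CPM in Unstimulated and 19.6, 20.4 and 16.8 in LPS, with no overlap. LPS raised it 1.63-fold (log2 difference 0.70 ± 0.15, adjusted p = 8.9e-05), with 0.92 on lane 5 and 0.41 on lane 6. It measured 17.7, 13.2 and 15.8 CPM with IL-10, which overlaps Unstimulated, and passed narrowly (log2 difference 0.42 ± 0.15, adjusted p = 0.0468). JQ1 left it at 15.6, 13.0 and 13.1 CPM alone and 19.96, 19.8 and 18.4 CPM under LPS, and neither difference passed (log2 difference 0.25 ± 0.15, adjusted p = 0.308, and log2 difference 0.03 ± 0.14, adjusted p = 0.953). LPS_IL10 had the highest libraries (27.0, 21.8 and 24.9 CPM), and its difference from LPS missed the threshold (log2 difference 0.37 ± 0.14, adjusted p = 0.0696). In other settings Fcgr4 +0.1 lost the IL-10 call (0.18 without replicate 1, 0.55 without replicate 2, 0.22 by total counts, 0.11 with loess offsets, 0.32 with a minimum of 10 counts, 0.40 with only the groups compared). It gained the LPS_IL10-against-LPS call (0.44 by total counts, 0.40 with loess offsets, 0.37 with a minimum of 10 counts, 0.39 with only the groups compared) and the LPS_JQ1-against-LPS_IL10 call (-0.42 by total counts, -0.43 with loess offsets, -0.37 with a minimum of 10 counts, -0.36 with only the groups compared).

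Downstream of Fcgr4, towards Fcgr3, the responses were mixed. The 2 peaks described next fall outside the naming rule and were chosen after their values were seen. Fcgr4 +14.5 (mm9 chr1:172961497-172965635) went from 8.37, 9.34 and 10.8 CPM in Unstimulated to 20.6, 22.0 and 19.0 in LPS (log2 difference 1.11 ± 0.14, adjusted p = 6.11e-10). Fcgr4 +12.1, a weak peak of 728 bp, measured 2.48, 1.70 and 1.67 CPM in LPS, 0.537, 0.928 and 0.620 in LPS_JQ1 and 4.42, 2.95 and 3.72 in LPS_IL10. JQ1 lowered it under LPS (log2 difference -1.48 ± 0.33, adjusted p = 0.00125) and IL-10 raised it (log2 difference 0.91 ± 0.27, adjusted p = 0.0158).

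Fcgr3 had sites where LPS and IL-10 acted in opposite directions. Fcgr3 +12.1 (mm9 chr1:172975710-172979084), an intergenic peak of 3374 bp between Fcgr3 and Fcgr4, measured 9.37, 14.8 and 18.6 CPM in Unstimulated, 6.71, 7.89 and 9.85 in LPS and 7.16, 8.19 and 8.73 in JQ1. With IL-10 it measured 24.4, 24.4 and 28.3 CPM alone and 24.2, 26.9 and 22.9 CPM under LPS. The 6 IL-10 libraries were all above the other 12, and Unstimulated and LPS overlapped slightly. LPS lowered it (log2 difference -0.82 ± 0.16, adjusted p = 1.98e-05) with -0.80 on lane 5 and -1.07 on lane 6, and JQ1 alone lowered it as well (log2 difference -0.83 ± 0.16, adjusted p = 4.02e-05). IL-10 raised it 1.80-fold alone (log2 difference 0.84 ± 0.15, adjusted p = 2.75e-05) and 3.04-fold under LPS (log2 difference 1.60 ± 0.15, adjusted p = 1.34e-14). The interaction of LPS and IL-10 was 0.76 ± 0.21, adjusted p = 0.0121. Under LPS, JQ1 left it at 7.37, 6.17 and 7.37 CPM, a difference that did not pass (log2 difference -0.22 ± 0.17, adjusted p = 0.553). Fcgr3 +12.1 lost the LPS and IL-10 interaction call (0.61 without replicate 2). It gained the LPS and JQ1 interaction call (0.88 by total counts, 0.88 with loess offsets, 0.69 with a minimum of 10 counts).

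The adjacent peak Fcgr3 +9.7 (mm9 chr1:172979230-172980376) was weaker and had the same calls for LPS and IL-10. It measured 2.61, 3.13 and 2.47 CPM in Unstimulated, 1.10, 1.95 and 1.61 in LPS and 5.69, 5.74 and 4.87 in LPS_IL10, with no overlap between the last 2. IL-10 under LPS raised it 3.50-fold (log2 difference 1.81 ± 0.24, adjusted p = 6.02e-09), and LPS alone lowered it (log2 difference -0.82 ± 0.26, adjusted p = 0.0122; -1.29 on lane 5 and -0.45 on lane 6). IL-10 alone, at 5.26, 5.10 and 3.76 CPM, raised it (log2 difference 0.78 ± 0.23, adjusted p = 0.015), and the interaction was 1.03 ± 0.33, adjusted p = 0.038. At Fcgr3 +9.7, the LPS call (-0.63 without replicate 1, -0.92 without replicate 2), the IL-10 call (0.68 without replicate 1, 0.83 without replicate 2, 0.57 by total counts), and the LPS and IL-10 interaction call (0.89 without replicate 1, 1.15 without replicate 2, 1.07 without replicate 3, 1.00 with loess offsets) were lost. It gained the JQ1 call (-1.07 without replicate 1, -0.87 by total counts, -0.70 with a minimum of 10 counts).

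The start of Fcgr3 rose with JQ1. Fcgr3 +0.0 (mm9 chr1:172989075-172990036) measured 8.63, 10.4 and 15.8 CPM in Unstimulated and 21.5, 23.3 and 19.7 in JQ1, 13.3, 13.2 and 14.2 in LPS and 18.6, 19.98 and 19.6 in LPS_JQ1. Neither pair overlapped, and JQ1 raised it alone (log2 difference 0.88 ± 0.15, adjusted p = 4.02e-06) and under LPS (log2 difference 0.52 ± 0.15, adjusted p = 0.0164). IL-10 alone raised it (log2 difference 0.55 ± 0.15, adjusted p = 0.00801), with libraries at 14.9, 18.2 and 18.1 CPM that overlap Unstimulated, whereas LPS gave a log2 difference of 0.22 ± 0.15, adjusted p = 0.303 and did not pass. The broad promoter peak Fcgr3 +4.2 measured 17.7, 21.2 and 22.7 CPM in Unstimulated and 24.0, 19.1 and 23.8 in LPS, and 33.3, 33.2 and 34.9 and 38.9, 36.0 and 35.4 in the IL-10 groups without and with LPS. Here IL-10 raised it alone (log2 difference 0.71 ± 0.14, adjusted p = 0.000137) and under LPS (log2 difference 0.72 ± 0.13, adjusted p = 3.38e-05), with an interaction of 0.01 ± 0.19, adjusted p = 0.99. The 6 IL-10 libraries did not overlap any other group. Fcgr3 +4.2 gained the JQ1 call (0.39 by DESeq2) and the LPS and IL-10 interaction call (0.49 with loess offsets) in other settings. Lost at Fcgr3 +0.0 were the IL-10 call (0.49 without replicate 1, 0.42 without replicate 2, 0.26 with loess offsets) and the LPS_JQ1-against-LPS call (0.47 without replicate 2). It gained the LPS call (0.47 without replicate 3).

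Fcgr2b, the inhibitory receptor, had the most peaks called higher with IL-10, alone and under LPS, and the most called lower with JQ1 under LPS. The peak Fcgr2b +20.1 (mm9 chr1:172884597-172887690), is intergenic and lies 20.1 kb downstream of the start, past the end of the gene. It measured 5.15, 3.57 and 4.38 CPM in Unstimulated, 15.0, 15.2 and 10.8 in LPS and 3.91, 3.60 and 3.99 in LPS_JQ1. With IL-10 it measured 13.1, 11.2 and 15.9 CPM alone and 43.1, 38.1 and 36.1 CPM with LPS, and with JQ1 alone 3.58, 4.06 and 3.76 CPM. The 6 libraries with JQ1, with or without LPS, lay within the range of Unstimulated, LPS and IL-10 alone overlapped each other above it, and LPS_IL10 stood clear of both. LPS raised it 3.16-fold (log2 difference 1.66 ± 0.16, adjusted p = 5.47e-15; 1.78 on lane 5 and 1.52 on lane 6) and IL-10 alone 3.08-fold (log2 difference 1.62 ± 0.16, adjusted p = 6.22e-13). Under LPS, JQ1 lowered it 3.57-fold (log2 difference -1.84 ± 0.17, adjusted p = 8.37e-16) and IL-10 raised it 2.85-fold (log2 difference 1.51 ± 0.14, adjusted p = 2.24e-15). LPS_JQ1 was 10.2-fold below LPS_IL10 (log2 difference -3.34 ± 0.16, adjusted p = 1.27e-33). JQ1 alone gave a log2 difference of -0.19 ± 0.19, adjusted p = 0.581 and did not pass, and the interaction of LPS and JQ1 was -1.64 ± 0.25, adjusted p = 1.72e-05. The interaction of LPS and IL-10 was -0.12 ± 0.21, adjusted p = 0.821, and did not pass. In this peak 28.6% of 50-base windows also occur elsewhere in mm9. A 50-base read there cannot be placed by its own bases, and whether the other read of its pair placed it was not examined. In other settings Fcgr2b +20.1 lost the LPS and JQ1 interaction call (-1.34 without replicate 2). It gained the JQ1 call (-0.47 by total counts).

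In Fcgr2b +20.1 lie 2 GAS matches. The letters of the match in the Fcgr1 promoter occur, read on either strand, 8 times in the 93 peaks, once in each of 8 peaks. These are Fcgr1 +0.2 with the promoter itself, Fcgr1 +9.5, Fcgr2b +15.2, Fcgr2b +7.8, Fcgr3 +12.1 and Fcgr3 +4.2, which were called higher with IL-10 under LPS, and Fcgr4 +11.1 and Fcer1g +17.1, which were not. In this comparison 29.0% of the 93 peaks and 4.72% of all tested peaks were called higher. The letters were taken from Fcgr1 +0.2, itself among the peaks called higher, so the 8 peaks cannot show a link to the response. Fcgr2b +15.2, Fcgr2b +7.8, Fcgr4 +11.1 and Fcer1g +17.1 were named after their values were seen. The matches in Fcgr2b +20.1 and the 4 with the letters of the Fcgr1 promoter on the plus strand are shown with 25 bases on each side (mm9 plus strand, match in capitals). These peaks rose with IL-10 under LPS and were picked for it, so the choice bears on no link between letters and response. The match in Fcgr1 +9.5, which rose as well, and those of peaks that did not rise are not printed.
Fcgr2b +20.1, chr1:172885911-172885969: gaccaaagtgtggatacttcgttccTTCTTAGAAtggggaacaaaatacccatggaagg
Fcgr2b +20.1, chr1:172886539-172886597: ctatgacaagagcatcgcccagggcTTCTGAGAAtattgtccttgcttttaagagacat
Fcgr2b +15.2, chr1:172891932-172891990: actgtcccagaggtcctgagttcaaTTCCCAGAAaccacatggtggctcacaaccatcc
Fcgr2b +7.8, chr1:172897972-172898030: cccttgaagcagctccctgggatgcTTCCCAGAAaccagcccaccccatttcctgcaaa
Fcgr3 +12.1, chr1:172977754-172977812: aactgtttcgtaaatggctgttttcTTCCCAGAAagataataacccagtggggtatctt
Fcgr3 +4.2, chr1:172987695-172987753: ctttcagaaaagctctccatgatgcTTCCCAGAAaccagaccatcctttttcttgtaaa
Wide peaks often hold such a match. At least 1 was present in 35 of the 93 peaks over their whole length (37.6%), against 31.1% of all peaks, and 61.8% of 5588 peaks within 10% of the width of Fcgr2b +20.1 held one. This share was 28.0% for the width of Fcgr1 +0.2, 89.5% for Fcgr1 +9.5, 50.7% for Fcgr2b +15.2 and 36.8% for Fcgr2b +7.8. It was 64.4% for Fcgr3 +12.1, 85.5% for Fcgr3 +4.2, 29.3% for Fcgr4 +11.1 and 81.7% for Fcer1g +17.1. Some of the 35, such as Fcgr2b +20.1, were called higher with IL-10 under LPS. Others were not, among them Fcgr2b -10.1, Fcgr4 +14.5 (3 matches) and Fcer1g -14.7 (2 matches, called lower). Whether a match goes with the response to IL-10 was not tested. In the central 300 bp of the peaks, GAS matches were in 6.45% of the 93 and 8.74% of all peaks, kappaB in 14.0% of both, ISRE cores in 4.30% and 4.40%, PU.1 boxes in 3.23% and 4.58%, and AP-1 sites in 4.30% (4 peaks) and 12.1%.

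On the same side of the gene, Fcgr2b +17.1 (mm9 chr1:172888705-172889518) and Fcgr2b +24.1 (mm9 chr1:172881325-172882910) were weaker. Fcgr2b +17.1 measured 1.14, 1.10 and 1.04 CPM in Unstimulated, 3.63, 3.85 and 2.33 in LPS, 1.07, 0.764 and 1.59 in LPS_JQ1 and 9.35, 9.62 and 7.86 in LPS_IL10. LPS and IL-10 alone raised it (log2 difference 1.59 ± 0.28, adjusted p = 2.3e-06, and log2 difference 1.36 ± 0.28, adjusted p = 0.00044). Under LPS, JQ1 lowered it (log2 difference -1.47 ± 0.27, adjusted p = 3.42e-05) and IL-10 raised it (log2 difference 1.44 ± 0.22, adjusted p = 2.41e-07). Its LPS_JQ1 libraries lay around those of Unstimulated. Fcgr2b +24.1 measured 2.57, 3.35 and 2.03 CPM in LPS and 10.8, 8.92 and 7.63 in LPS_IL10, a 3.40-fold rise (log2 difference 1.77 ± 0.22, adjusted p = 5.99e-10), while LPS_JQ1, at 3.38, 1.47 and 1.59 CPM, did not pass against LPS (log2 difference -0.39 ± 0.25, adjusted p = 0.456). The LPS effect on it was a log2 difference of 0.68 ± 0.26, adjusted p = 0.0474 and that of IL-10 alone was a log2 difference of 0.97 ± 0.26, adjusted p = 0.00701. Fcgr2b +17.1 gained the LPS and JQ1 interaction call (-1.32 by DESeq2) in other settings. Fcgr2b +24.1 lost the LPS call (0.46 without replicate 2, 0.63 without replicate 3, 0.44 by total counts, 0.65 with loess offsets, 0.60 with a minimum of 10 counts, 0.66 with only the groups compared, 0.69 by DESeq2) and the IL-10 call (0.81 without replicate 2, 0.80 without replicate 3). It gained the LPS and IL-10 interaction call (1.08 by total counts).

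Upstream of Fcgr2b the pattern differed. Fcgr2b -10.1 (mm9 chr1:172914982-172917622) measured 7.63, 7.47 and 10.4 CPM in Unstimulated, 28.0, 30.3 and 30.0 in LPS, 31.3, 25.0 and 20.7 in LPS_JQ1 and 37.5, 33.2 and 31.2 in LPS_IL10. LPS raised it 3.46-fold (log2 difference 1.79 ± 0.15, adjusted p = 7.49e-19; 1.88 on lane 5 and 1.53 on lane 6). The LPS_JQ1 libraries overlapped both other LPS groups, and those of LPS_IL10 were above those of LPS. Neither JQ1 (log2 difference -0.21 ± 0.14, adjusted p = 0.464) nor IL-10 (log2 difference 0.21 ± 0.14, adjusted p = 0.376) passed under LPS. IL-10 alone, at 16.7, 18.3 and 18.7 CPM, raised it (log2 difference 1.08 ± 0.15, adjusted p = 1.45e-07), so the interaction of LPS and IL-10 was -0.87 ± 0.20, adjusted p = 0.00211. At Fcgr2b -10.1, the LPS_JQ1-against-LPS_IL10 call (-0.41 without replicate 2, -0.34 without replicate 3) and the LPS and IL-10 interaction call (-0.73 without replicate 2, -0.48 with loess offsets) were lost. It gained the JQ1 call (0.54 without replicate 3, 0.45 with DESeq2 size factors, 0.45 by DESeq2) and the LPS and JQ1 interaction call (-0.66 by DESeq2).

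At the start of Fcgr2b (Fcgr2b -1.3, mm9 chr1:172905726-172909324), Unstimulated measured 10.4, 14.2 and 16.3 CPM, LPS 21.3, 21.7 and 22.0, IL10 21.6, 18.8 and 19.9 and JQ1 18.2, 22.7 and 23.6. All 3 were above Unstimulated with no overlap, with log2 differences of 0.66, 0.55 and 0.65 and adjusted p-values of 0.000149, 0.00526 and 0.000354. Under LPS, IL-10 raised the promoter to 34.4, 30.4 and 29.4 CPM (log2 difference 0.53 ± 0.14, adjusted p = 0.00394). JQ1 left it at 24.3, 22.2 and 24.6 CPM, which did not pass (log2 difference 0.13 ± 0.14, adjusted p = 0.705). No fall with JQ1 was called at the promoter, and its difference from +20.1 was not tested. Lost at Fcgr2b -1.3 were the JQ1 call (0.64 without replicate 2, 0.21 with loess offsets), the IL-10 call (0.36 without replicate 1, 0.63 without replicate 2, 0.21 with loess offsets), the LPS_IL10-against-LPS call (0.56 without replicate 2), and the LPS_JQ1-against-LPS_IL10 call (-0.36 without replicate 1, -0.38 without replicate 2). It gained the LPS and JQ1 interaction call (-0.55 by DESeq2).

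**Figure D3:**
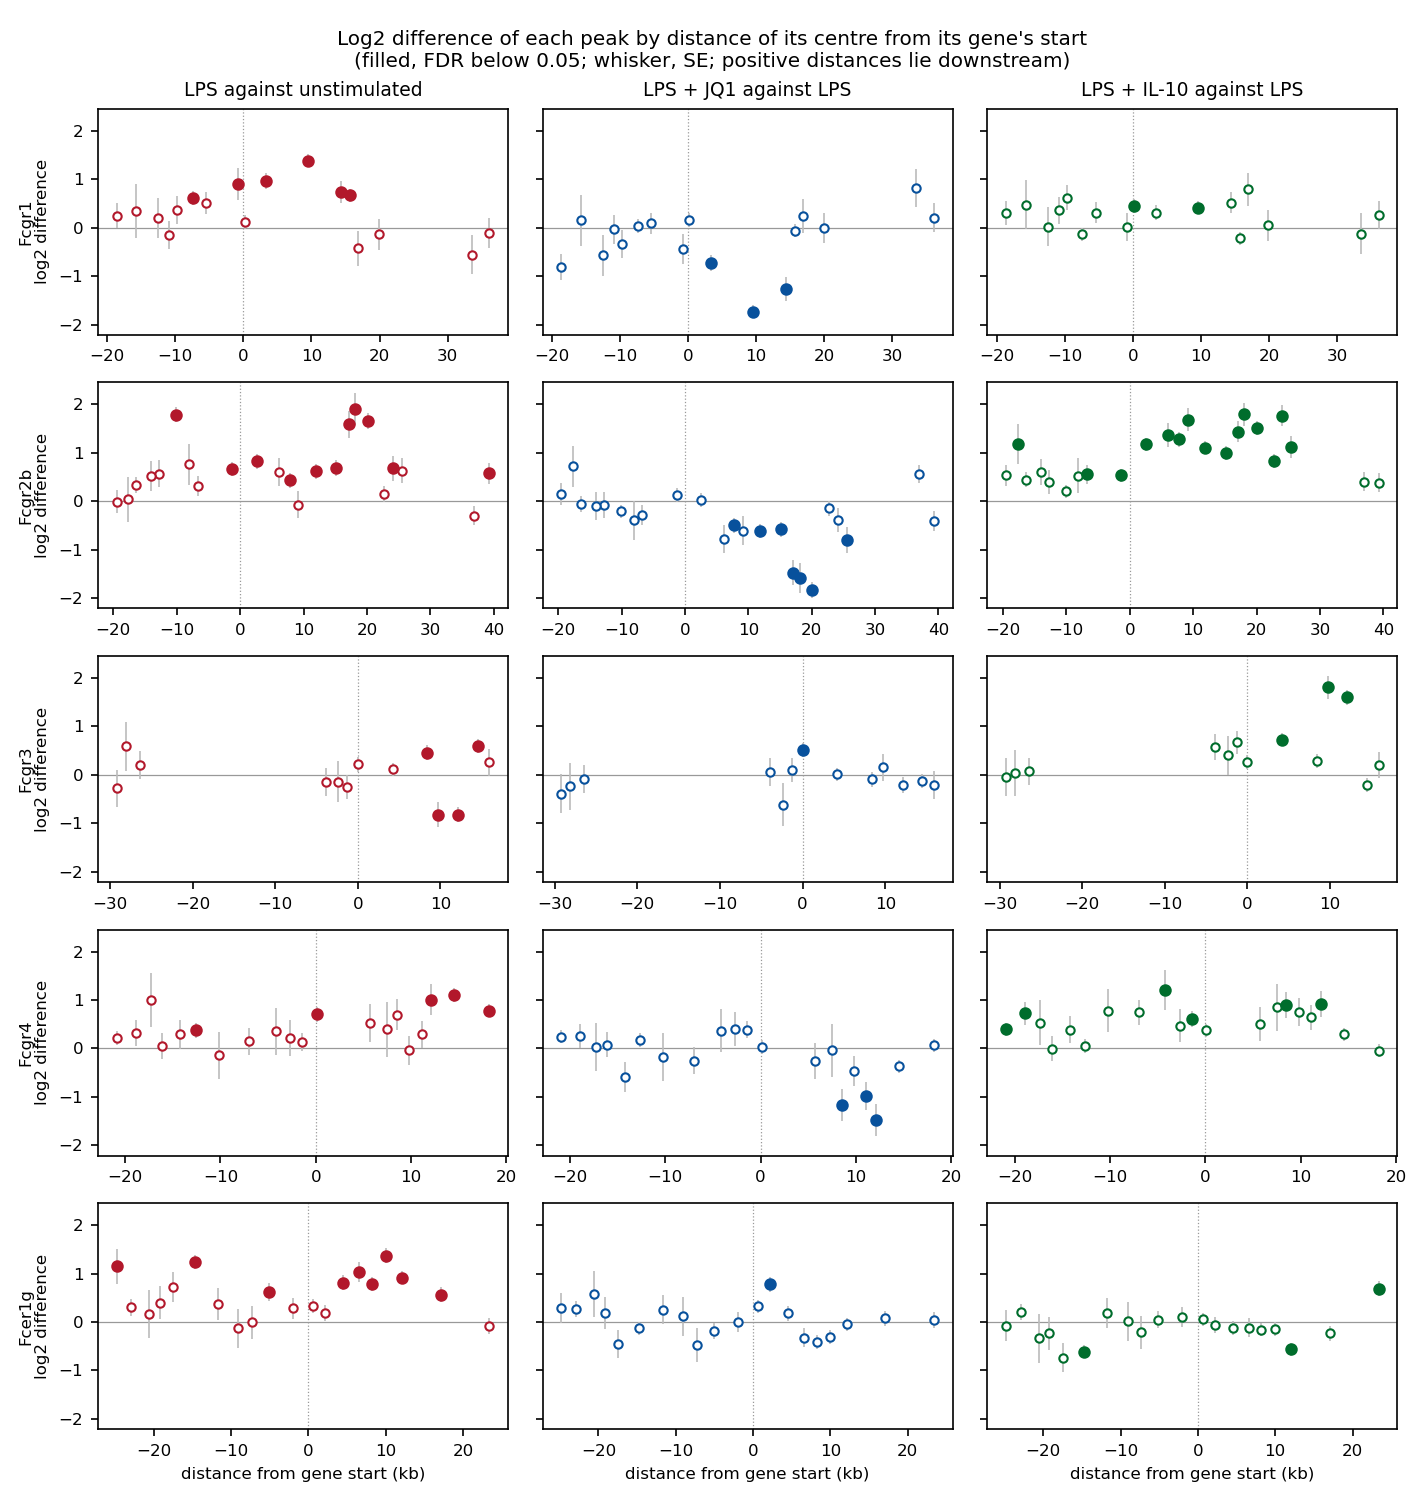
Log2 difference of each peak (y axis) by the distance in kb of its centre from the start of its gene (x axis), in 1 row per gene and 1 column per comparison; filled points are called and whiskers are the SE. In the Fcgr2b row, LPS_JQ1 against LPS falls and LPS_IL10 against LPS rises on the downstream side, with -1.84 and 1.51 at +20.1 kb.

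In the 8 comparisons, 59 of the 93 peaks (63.4%) were called at least once and 34 in none, where 40.6% of all tested peaks were called at least once.

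At Fcer1g, the signalling chain, IL-10 under LPS raised 1 of 20 peaks and lowered 2 (5% and 10%, against 4.72% and 5.31% of all peaks), and JQ1 alone raised 4 and lowered 1 (20% and 5%, against 9.33% and 3.29%). The first of these shares is near that of all peaks. Its promoter peak Fcer1g +0.6 (mm9 chr1:173163283-173164495) measured 14.1, 17.9 and 18.9 CPM in Unstimulated and 26.8, 28.7 and 28.9 in JQ1, with no overlap, and JQ1 raised it 1.66-fold (log2 difference 0.73 ± 0.14, adjusted p = 4.34e-05). LPS, at 23.5, 20.5 and 19.9 CPM (log2 difference 0.33 ± 0.14, adjusted p = 0.0727), and IL-10, at 21.0, 20.4 and 23.7 CPM (log2 difference 0.35 ± 0.14, adjusted p = 0.0862), did not pass. Under LPS it measured 28.0, 28.8 and 23.6 CPM with JQ1 (log2 difference 0.32 ± 0.14, adjusted p = 0.176) and 25.9, 22.7 and 18.1 CPM with IL-10 (log2 difference 0.05 ± 0.14, adjusted p = 0.865). Neither of these passed. The intronic peak Fcer1g +2.2 (mm9 chr1:173161959-173162569) measured 5.55, 5.33 and 7.18 CPM in Unstimulated and 11.9, 8.40 and 10.0 in JQ1, and 7.03, 6.49 and 6.99 in LPS and 11.6, 12.0 and 11.6 in LPS_JQ1. JQ1 raised it alone (log2 difference 0.75 ± 0.16, adjusted p = 0.000307) and under LPS (log2 difference 0.78 ± 0.16, adjusted p = 0.000224), with no overlap in either pair. With Fcgr3 +0.0 it was 1 of the 2 peaks of the 93 called higher with JQ1 under LPS. Fcer1g +2.2 gained the IL-10 call (0.46 with DESeq2 size factors, 0.46 by DESeq2) in other settings. In other settings Fcer1g +0.6 lost the JQ1 call (0.27 with loess offsets). It gained the LPS call (0.46 without replicate 3).

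The 2 Fcer1g-window peaks that IL-10 lowered under LPS are the starts of other genes. Fcer1g -14.7 (mm9 chr1:173177282-173181095) spans the start of Adamts4, a secreted protease, and Fcer1g +12.1 (mm9 chr1:173151898-173152866) that of Tomm40l, a mitochondrial import protein. Fcer1g -14.7 measured 26.5, 25.8 and 38.5 CPM in Unstimulated, 81.8, 67.4 and 65.3 in LPS and 50.0, 48.5 and 41.7 in LPS_IL10. LPS raised it (log2 difference 1.24 ± 0.14, adjusted p = 3.39e-12; 1.64 on lane 5 and 0.78 on lane 6), and IL-10 under LPS lowered it (log2 difference -0.62 ± 0.14, adjusted p = 0.00082) with no overlap. Fcer1g +12.1 measured 26.03, 25.3 and 35.8 CPM in Unstimulated, 60.3, 52.0 and 52.4 in LPS and 45.5, 36.4 and 29.9 in LPS_IL10. It rose with LPS (log2 difference 0.92 ± 0.14, adjusted p = 7.04e-08; 1.23 on lane 5 and 0.54 on lane 6) and fell with IL-10 under LPS (log2 difference -0.56 ± 0.14, adjusted p = 0.00242). Without LPS both treatments raised both peaks. At +12.1 the values were 51.6, 58.8 and 52.5 CPM with JQ1 (log2 difference 0.90 ± 0.14, adjusted p = 8.29e-07) and 42.8, 48.3 and 44.6 with IL-10 (log2 difference 0.64 ± 0.14, adjusted p = 0.00101), and at -14.7 the log2 differences were 0.60 and 0.49. The interactions of LPS with IL-10 (-1.20 at +12.1 and -1.11 at -14.7) and with JQ1 (-0.95 and -0.74) were all called. Fcer1g +12.1 lost the JQ1 call (0.23 with loess offsets), the IL-10 call (0.49 without replicate 2, 0.18 with loess offsets), the LPS_IL10-against-LPS call (-0.58 without replicate 2), the LPS_JQ1-against-LPS_IL10 call (0.44 without replicate 2, 0.41 without replicate 3), and the LPS and JQ1 interaction call (-0.89 without replicate 2, -0.37 with loess offsets). At Fcer1g -14.7, the JQ1 call (0.47 without replicate 2, -0.093 with loess offsets), the IL-10 call (0.48 without replicate 1, 0.36 without replicate 2, 0.028 with loess offsets, 0.48 with only the groups compared), the LPS_JQ1-against-LPS_IL10 call (0.38 without replicate 1, 0.56 without replicate 2, 0.18 with loess offsets), the LPS and JQ1 interaction call (-0.79 without replicate 1, -0.60 without replicate 2, -0.13 with loess offsets, -0.74 with only the groups compared), and the LPS and IL-10 interaction call (-1.04 without replicate 2) were lost. A further LPS-induced peak, Fcer1g +10.0 over Apoa2, chosen after its values were seen, went from 7.16, 8.19 and 8.49 to 18.3, 21.8 and 21.7 CPM (log2 difference 1.37 ± 0.15, adjusted p = 8.82e-13).

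Unstimulated was low at 2 further strong peaks, named after their values were seen, and all comparisons with it share its 3 libraries. They are among 7 of the 93 peaks called higher with LPS, JQ1 and IL-10, a count that rests on the same 3 Unstimulated libraries and is given for its dependence on the scaling, since with loess offsets 6 of the 7 stayed called for LPS, 0 for JQ1, 1 for IL-10 and 0 for all 3. Fcgr1 +15.7, in an exon of Hist2h2bb, measured 18.8, 20.9 and 29.7 CPM in Unstimulated, 38.2, 33.7 and 38.8 in LPS (log2 difference 0.67 ± 0.14, adjusted p = 8e-05), 34.9, 37.6 and 33.8 in JQ1 (log2 difference 0.61 ± 0.14, adjusted p = 0.000586) and 31.7, 31.1 and 35.9 in IL10 (log2 difference 0.50 ± 0.14, adjusted p = 0.0091). Fcgr3 +14.5 measured 18.3, 24.4 and 36.1 CPM in Unstimulated, 41.0, 40.3 and 37.6 in LPS (log2 difference 0.59 ± 0.14, adjusted p = 0.000926), 37.3, 45.6 and 37.0 in JQ1 (log2 difference 0.60 ± 0.14, adjusted p = 0.00123) and 33.3, 34.9 and 39.1 in IL10 (log2 difference 0.44 ± 0.14, adjusted p = 0.0302). The TMM factors of Unstimulated were 1.24, 1.15 and 1.04 against 0.896 to 1.05 in the other 15 libraries. With loess offsets the JQ1 and IL-10 calls of both peaks were lost (0.049 and 0.11 at Fcgr1 +15.7, 0.02 and 0.043 at Fcgr3 +14.5), as was the LPS call of Fcgr3 +14.5 (0.22). The part of the scaling in these differences was not tested further.

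The interaction of LPS and JQ1 gave 0 higher and 7 lower peaks (0% and 7.53%, against 0.649% and 3.19% among all peaks), with 2 higher at an unadjusted p below 0.05 and 0 by DESeq2, which called 14 lower. The count of lower peaks was 3, 1 and 12 without replicates 1, 2 and 3, and 4 with total-count scaling and 2 with loess offsets, each with 2 higher. The interaction of LPS and IL-10 gave 3 higher and 6 lower peaks (3.23% and 6.45%, against 2.01% and 5.9%). It became 9 higher and 5 lower by total counts and 4 and 2 by loess offsets. Without replicate 1 it was 1 and 3, and without replicate 2 it was 0 and 1. The 3 higher ones were Fcgr3 +12.1, Fcgr3 +9.7 and Fcgr4 +9.8, the last weak and named after its values were seen.

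**Figure D4:**
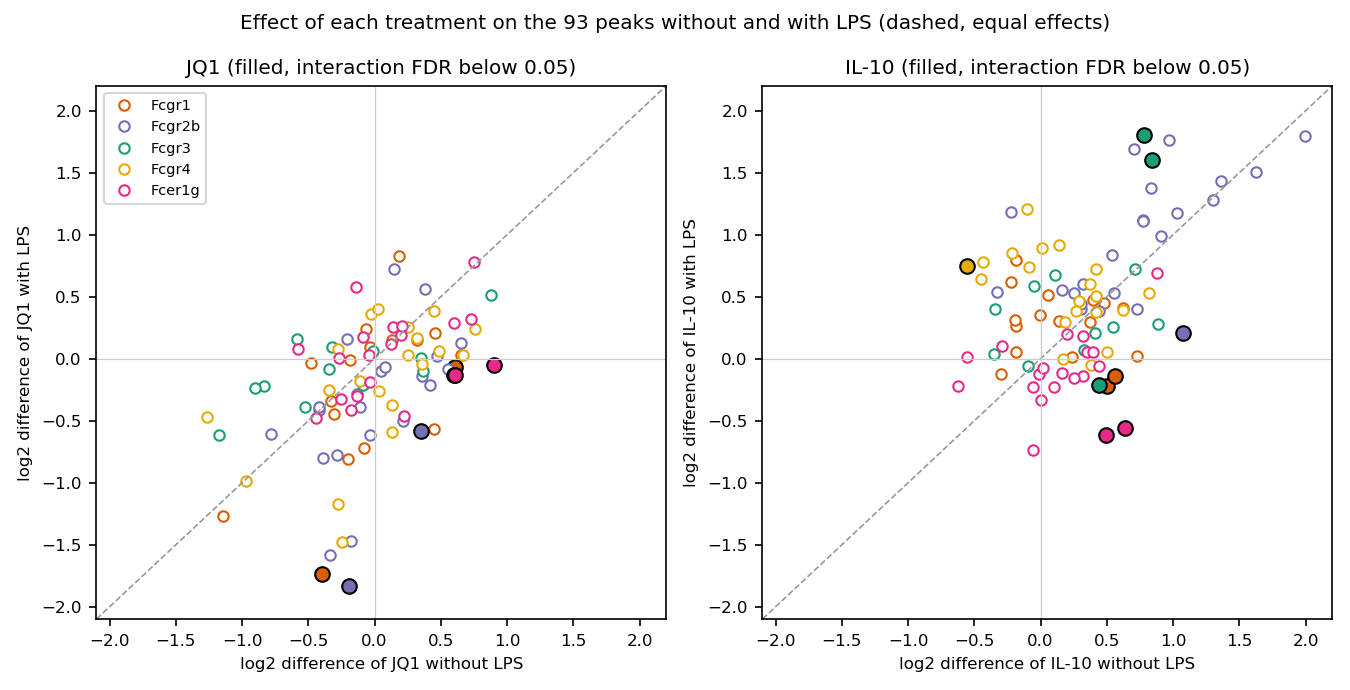
Log2 difference of JQ1 (left) and IL-10 (right) without LPS (x axis) and with LPS (y axis) for the 93 peaks, coloured by gene, with filled points for a called interaction and a dashed line for equal effects. Fcgr1 +9.5 and Fcgr2b +20.1 lie far below the line for JQ1 (-1.73 and -1.84 with LPS), and Fcgr3 +9.7 and +12.1 above it for IL-10.

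Summed over the peaks of a window, accessibility of Fcgr2b was 121 ± 17.8 CPM in Unstimulated, 192 ± 11.3 in LPS, 167 ± 7.27 in LPS_JQ1 and 343 ± 24.4 in LPS_IL10 (mean ± SD, n = 3, as for all sums). LPS_IL10 was 2.05-fold above LPS_JQ1. The Fcgr1 window summed to 112 ± 15.8, 188 ± 10.6, 138 ± 9.27 and 214 ± 16.6 CPM in the same groups. Both windows thus ordered the LPS groups as LPS_JQ1, LPS and LPS_IL10, with no overlap between any of the 3 (exact permutation test, two-sided, p = 0.1 for each pair, the smallest that 3 against 3 allows). At Fcgr1 the order rested on Fcgr1 +9.5. Without this peak, an alternative chosen after the values were seen, the sums were 119 ± 8.32 CPM in LPS_JQ1, 126 ± 4.90 in LPS and 131 ± 7.71 in LPS_IL10, which overlap, and with gene bodies extended by 50 kb the log2 ratio of LPS_JQ1 to LPS went from -0.45 to -0.085. For Fcgr3 the sums were 137 ± 29.2, 183 ± 7.41, 176 ± 6.55 and 229 ± 6.01 CPM, and for Fcgr4 179 ± 34.4, 240.1 ± 10.3, 238 ± 5.85 and 306 ± 5.15 CPM. In both, LPS and LPS_JQ1 overlapped while LPS_IL10 lay above them. The Fcer1g window went the other way, at 148 ± 16.7, 259.9 ± 14.1, 257 ± 32.2 and 215 ± 17.9 CPM, with LPS_IL10 below LPS and no overlap (log2 ratio -0.28, exact permutation p = 0.1). This fall lay in the starts of Adamts4 and Tomm40l, from 71.5 to 46.7 CPM at Fcer1g -14.7 and from 54.9 to 37.3 CPM at Fcer1g +12.1, and without these 2 peaks, again chosen after the values were seen, LPS measured 133 ± 1.11 CPM and LPS_IL10 131 ± 7.52 CPM, which overlap (log2 ratio -0.029). Without LPS, JQ1 and IL-10 gave 135 ± 1.33 and 154 ± 6.56 CPM at Fcgr1, 155 ± 5.06 and 206 ± 6.03 at Fcgr2b, 169 ± 4.34 and 194 ± 10.8 at Fcgr3, 225 ± 1.36 and 254 ± 9.21 at Fcgr4, and 199 ± 6.52 and 194 ± 4.43 at Fcer1g. All of these means were above Unstimulated, and only JQ1 at Fcgr3 overlapped it. By total-count scaling the JQ1 ratios shrank, at Fcgr2b from 0.36 to 0.07.

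**Figure D5:**
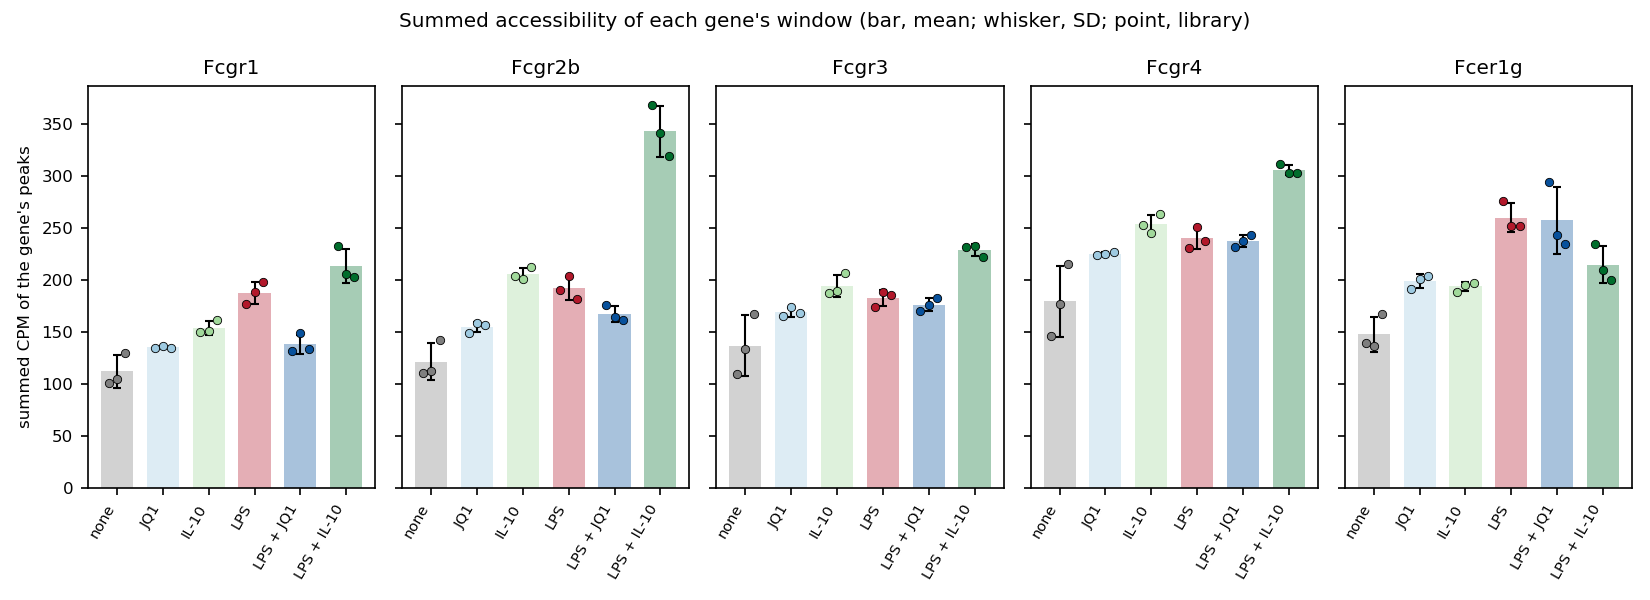
Summed TMM-scaled CPM of the peaks in each gene's window (y axis) by group, with bars for the mean, whiskers for the SD and 1 point per library. Fcgr2b reaches 343 CPM in LPS_IL10, and Fcer1g, with the starts of Adamts4 and Tomm40l in its window, is the one in which LPS_IL10 lies below LPS.

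The rest of the pathway was taken from 5 gene lists with the same window rule. Their median log2 differences with LPS were 0.30 for receptors that pair with the common gamma chain, 0.11 for activating signalling, -0.08 for inhibitory signalling, 0.26 for phagocytosis and oxidase effectors and -0.11 for other immunoglobulin receptors (all peaks -0.03), and with IL-10 under LPS 0.40, 0.22, 0.22, 0.04 and 0.23 in that order (all peaks -0.01). Receptors that pair with the common gamma chain (6 genes, 50 peaks) had 14 peaks higher and 0 lower with LPS (28% and 0%, against 14.5% and 10.8% of all peaks), 1 and 6 for LPS_JQ1 against LPS (2% and 12%, against 2.07% and 3.67%), and 5 and 0 for LPS_IL10 against LPS (10% and 0%, against 4.72% and 5.31%). The same shares of all peaks apply to the lists that follow. Tarm1 held 5 of the 6 peaks lower with JQ1 under LPS and 4 of the 5 higher with IL-10 under LPS. The other peak lower with JQ1 was shared by the windows of Clec4e, Clec4d and Clec4n. Of the named peaks of this list, Tarm1 +19.2 had the largest fall with JQ1 under LPS. It is an intergenic peak near an activating receptor of the leukocyte receptor complex and measured 3.76 CPM in Unstimulated, 9.98 in LPS and 4.03 in LPS_JQ1 (log2 difference 1.41 ± 0.19 with LPS and -1.35 ± 0.19 with JQ1 under LPS, adjusted p = 1.14e-09 and 3.14e-08). The broad peak over Clec4e and Clec4d, the receptors Mincle and MCL, also fell with JQ1 under LPS, from 80.4 to 47.7 CPM (-0.76 ± 0.13, adjusted p = 1.8e-05). At an unadjusted p below 0.05 there were 1 lower peaks with LPS (edgeR) and 0 with IL-10 under LPS, and DESeq2 called 0 and 0.

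Activating signalling (12 genes, 470 peaks) had 118 higher and 36 lower peaks with LPS (25.1% and 7.66%), 15 and 25 with JQ1 under LPS (3.19% and 5.32%), and 77 and 3 with IL-10 under LPS (16.4% and 0.638%). Lcp2 held 14 of the 25 peaks lower with JQ1 under LPS. Syk, the kinase that docks on the gamma chain, had an intronic peak 3.1 kb from its start at 4.88 CPM in Unstimulated, 30.0 in LPS, 30.8 in LPS_JQ1 and 24.7 in LPS_IL10 (2.61 ± 0.16 with LPS, adjusted p = 2.15e-27). Lcp2, the adaptor SLP-76, had an intergenic peak (+11.8) at 2.60, 12.3, 3.57 and 11.8 CPM in the same groups, up with LPS (2.23 ± 0.21, adjusted p = 1.79e-16) and down with JQ1 under LPS (-1.82 ± 0.20, adjusted p = 4.05e-12). With JQ1 under LPS the Syk peak gave 0.03 (adjusted p = 0.953) and did not pass.

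Inhibitory signalling (6 genes, 225 peaks) had 34 higher and 43 lower peaks with LPS (15.1% and 19.1%, the first near the share of all peaks), 4 and 2 with JQ1 under LPS (1.78% and 0.889%, the first again near it), and 40 and 7 with IL-10 under LPS (17.8% and 3.11%). Of the 43 peaks lower with LPS, 31 lay at Inpp5d and 6 at Cbl. Ptpn6 (6 higher and 2 lower), Dok1 (5 and 1), Dok2 (6 and 1) and Cblb (13 and 2) had more higher than lower. With IL-10 under LPS, 20 of the higher peaks lay at Inpp5d and 17 at Cbl. Inpp5d, which encodes the SHIP-1 phosphatase recruited by FcγRIIB, lost accessibility at +18.5, from 17.7 CPM in Unstimulated to 4.52 in LPS (-1.97 ± 0.16, adjusted p = 5.43e-20). Ptpn6, which encodes SHP-1, rose at its start with JQ1 under LPS, from 10.8 to 17.5 CPM (0.71 ± 0.15, adjusted p = 0.00049).

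Phagocytosis and oxidase effectors (10 genes, 179 peaks) had 53 higher and 11 lower peaks with LPS (29.6% and 6.15%), 6 and 12 with JQ1 under LPS (3.35% and 6.7%), and 16 and 10 with IL-10 under LPS (8.94% and 5.59%, the second near the share of all peaks). Cybb, the catalytic subunit of the phagocyte oxidase, rose over its gene from 13.8 to 45.7 CPM with LPS (1.72 ± 0.14, adjusted p = 1.76e-19). A peak near the oxidase subunit Ncf1 that lies in the neighbouring gene Gtf2ird2 fell from 23.9 CPM in LPS to 6.43 in LPS_JQ1 (-1.92 ± 0.15, adjusted p = 7.22e-19). Upstream of Marcks, an actin-binding substrate of protein kinase C, a peak went from 1.76 to 12.3 CPM with LPS (2.78 ± 0.21, adjusted p = 1.54e-21) and was lower with IL-10 under LPS, at 3.79 CPM (-1.69, adjusted p = 3.79e-12).

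Immunoglobulin receptors outside the 5 genes (7 genes, 87 peaks) had 14 higher and 15 lower peaks with LPS (16.1% and 17.2%, the first near the share of all peaks), 2 and 6 with JQ1 under LPS (2.3% and 6.9%), and 12 and 9 with IL-10 under LPS (13.8% and 10.3%). All 6 peaks lower with JQ1 and all 9 lower with IL-10 under LPS lay in the Trim21 window. Trim21, the cytosolic IgG receptor, rose with LPS in a peak at +11.8 within the olfactory receptor gene Olfr549, from 3.75 to 13.1 CPM (1.79 ± 0.18, adjusted p = 7.37e-15), and was lower with JQ1 under LPS, at 6.17 CPM (-1.10 ± 0.17, adjusted p = 5.74e-07). IL-10 under LPS lowered it as well, to 5.91 CPM (-1.14, adjusted p = 1.13e-07). Fcrls, an Fc receptor-like gene, fell with LPS from 4.83 to 2.06 CPM (-1.23 ± 0.23, adjusted p = 7.81e-06).

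Over the 18 libraries, promoter peaks elsewhere in the genome that varied most like those of the 5 genes were, by Pearson's r of log2 CPM among 17692 promoter peaks, Aig1 (0.890), Mrps15 (0.878) and Tifa (0.864) for Fcgr1, Fyb (0.956), Pi4kb (0.940) and Sla (0.931) for Fcgr2b, Pold3 (0.894), Tgm1 (0.891) and Mrps15 (0.891) for Fcgr3, Edn1 (0.953), Sphk1 (0.935) and Lcp1 (0.929) for Fcgr4, and Inpp1 (0.963), Ubxn4 (0.956) and Ptpn21 (0.946) for Fcer1g. These values describe likeness over libraries that share groups and scaling. Those for Fcgr3 rest on the broad peak Fcgr3 +4.2 and not on the peak at its RefSeq start.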

How the data were processed

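Chromatin accessibility was measured by paired-end ATAC-seq in 18 libraries of BMDMs from 3 Il10-/- mice. Per the labels and the study's methods, the authors aligned reads to mm9 with Bowtie2, called peaks with MACS2, merged them into a union set and split it with ChIPseeker into 36670 promoter and 157614 distal peaks. The deposited tables hold raw counts per peak and library, which were used as they stand, and the promoter and distal tables gave only the class of a peak. The tool that counted reads per peak is not given in the sources used here. The union table also holds 6 count columns that match no sample analysed here, and these were not used. A merged peak can join neighbouring sites, and counts of uniquely mapped reads can miss repeated sequence.

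The union table was fitted with edgeR 4.0.16 (R 4.3.3, quasi-likelihood test, TMM scaling, filterByExpr with the 6 groups), and p-values were adjusted by Benjamini-Hochberg over 194230 peaks. Interactions are differences of log2 differences. For window sums the test was an exact permutation test, two-sided. In data simulated for LPS against Unstimulated over 193175 peaks, 186 of 200 peaks changed by 1.5 on the log2 scale were recovered (93%), with 8 false calls. The simulation gave every peak the same fixed spread, took the changed peaks from those above a minimum mean count and left all others unchanged. It held no lane effect. It checks that the fit runs as meant, and does not give the power or the rate of false calls in the real data, where many peaks changed and many reported differences are smaller. Alternatives were DESeq2 1.42.0, its size factors, total-count scaling, loess offsets (limma 3.58.1), other filters, the replicate block, lane, only the groups compared, each replicate left out, windows of 10 and 50 kb, and an adjusted p below 0.01.

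Named peaks are the strongest peak within 1 kb of an annotated start of each gene and, in each of 8 comparisons, the 2 largest called rises and falls among peaks with a mean of at least 50 normalized counts; for the gene lists they are up to 3 called peaks with the largest change in each of LPS against Unstimulated and LPS_JQ1 against LPS, and for likeness the 3 promoters with the highest r. Motifs were searched on both strands. The members, gene lists and tests were chosen with earlier results of these data known.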

Additional observations from a re-analysis of the deposited data

Results flagged for a closer look

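For 9 pairs of a named peak and a treatment, the effect of the treatment differed between cells with and without LPS by edgeR's test of the interaction. The effect of JQ1 on the log2 scale went from -0.19 to -1.84 when LPS was present at Fcgr2b +20.1 (interaction -1.64 ± 0.25 (SE), adjusted p = 1.72e-05). At Fcgr1 +9.5 it went from -0.40 to -1.73 (interaction -1.33 ± 0.19 (SE), adjusted p = 4.71e-06). At the Tomm40l start, Fcer1g +12.1, it went from 0.90 to -0.05 (interaction -0.95 ± 0.19 (SE), adjusted p = 0.00249), and at the Adamts4 start, Fcer1g -14.7, from 0.60 to -0.13 (interaction -0.74 ± 0.20 (SE), adjusted p = 0.0191).

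The effect of IL-10 was larger with LPS at both peaks downstream of Fcgr3. It went from 0.78 to 1.81 at Fcgr3 +9.7 (interaction 1.03 ± 0.33 (SE), adjusted p = 0.038) and from 0.84 to 1.60 at Fcgr3 +12.1 (interaction 0.76 ± 0.21 (SE), adjusted p = 0.0121). It was smaller or of the other sign with LPS at Fcgr2b -10.1, from 1.08 to 0.21 (interaction -0.87 ± 0.20 (SE), adjusted p = 0.00211), at Fcer1g +12.1, from 0.64 to -0.56 (interaction -1.20 ± 0.20 (SE), adjusted p = 1.15e-05), and at Fcer1g -14.7, from 0.49 to -0.62 (interaction -1.11 ± 0.20 (SE), adjusted p = 6.02e-05). All 9 share the Unstimulated and LPS libraries, so they are not separate evidence of one another. Only Fcgr1 +9.5 with JQ1 and Fcer1g +12.1 with IL-10 stayed called in all 12 alternatives of scaling, filter, model and replicates. Fcgr3 +9.7 with IL-10 and Fcer1g -14.7 with JQ1 stayed called in 8 of them.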

How the results depend on the processing

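The 17 named peaks gave 74 called pairs of peak and comparison. Of these, 40 stayed called with the same sign in every alternative of scaling, filter, model and replicates that tested the peak. There were 12 such alternatives for each peak except Fcgr2b +17.1, which had 11 because it failed the filter of at least 10 counts in every library. The replicate number is shared by 1 library of each group. The study's methods describe biological triplicates and paired t-tests for relative expression and cytokine secretion. Neither they nor the labels tie a number to a mouse. After subtraction of group means, libraries with the same number had a mean r of 0.00573 over 45 pairs (highest 0.0644), against -0.00286 over 90 other pairs, and 9 of 18 libraries correlated best with 1 of their own number. With the replicate block 72 of 74 stayed called, the exceptions being Fcgr1 +9.5 for JQ1 (-0.40) and Fcgr4 +0.1 for IL-10 (0.41), and no count of peaks moved by more than 1.5 times. With lane as a covariate, or with no filter on low counts, all 74 stayed called. Without replicates 1, 2 and 3 in turn, 12, 31 and 10 of the 74 calls were lost. Loess offsets ended 17 of them, 1 with a turned sign, Fcer1g -14.7 for JQ1 (from 0.60 to -0.093), and turned the sign of 20 of the 62 values that were not called, of which 1 then passed, Fcgr1 +9.5 for the LPS and IL-10 interaction (from -0.21 to 0.40, adjusted p = 0.0476). Total-count scaling moved the median of all peaks by -0.26 for LPS, -0.37 for JQ1 and -0.26 for IL-10. The cause of these changes was not tested beyond the construction of each alternative.

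With 1 replicate left out in turn, the counts moved by more than 1.5 times in these results: 20 to 34 higher peaks for LPS (all replicates 33), 1 to 2 lower peaks for LPS (all replicates 2), 5 to 17 higher peaks for JQ1 (all replicates 12), 2 to 5 lower peaks for JQ1 (all replicates 6), 10 to 27 higher peaks for IL-10 (all replicates 29), 0 to 1 lower peaks for IL-10 (all replicates 0), 1 to 2 higher peaks for LPS_JQ1 against LPS (all replicates 2), 8 to 12 lower peaks for LPS_JQ1 against LPS (all replicates 13), 1 to 3 lower peaks for LPS_IL10 against LPS (all replicates 2), 1 to 12 lower peaks for the LPS and JQ1 interaction (all replicates 7), 0 to 2 higher peaks for the LPS and IL-10 interaction (all replicates 3) and 1 to 6 lower peaks for the LPS and IL-10 interaction (all replicates 6). The count was lowest without replicate 2 in most of them. The cause was not tested. With total counts in peaks as the scaling there were 13 lower peaks for JQ1, 2 higher peaks for the LPS and JQ1 interaction, 4 lower peaks for the LPS and JQ1 interaction and 9 higher peaks for the LPS and IL-10 interaction. With loess offsets there were 2 higher peaks for JQ1, 14 higher peaks for IL-10, 2 higher peaks for the LPS and JQ1 interaction, 2 lower peaks for the LPS and JQ1 interaction and 2 lower peaks for the LPS and IL-10 interaction. With at least 10 counts required in every library there were 2 higher peaks for the LPS and JQ1 interaction and 6 higher peaks for the LPS and IL-10 interaction. With only the groups compared in the fit there were 4 lower peaks for the LPS and JQ1 interaction. With DESeq2 there were 14 lower peaks for the LPS and JQ1 interaction. At an adjusted p below 0.01 there were 1 lower peaks for LPS, 3 lower peaks for JQ1, 1 higher peaks for LPS_JQ1 against LPS, 8 lower peaks for LPS_JQ1 against LPS, 3 lower peaks for the LPS and JQ1 interaction and 0 higher peaks for the LPS and IL-10 interaction. With gene bodies extended by 10 kb there were 1 lower peaks for LPS_IL10 against LPS. With gene bodies extended by 50 kb there were 5 lower peaks for LPS, 24 higher peaks for JQ1, 6 higher peaks for LPS_JQ1 against LPS, 5 higher peaks for LPS_JQ1 against LPS_IL10 and 1 higher peaks for the LPS and JQ1 interaction.

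With total counts in peaks as the scaling the log2 ratio of summed accessibility was 0.52 for Fcgr1, LPS (0.75), -0.0033 for Fcgr1, JQ1 (0.28), 0.26 for Fcgr1, IL-10 (0.47), 0.44 for Fcgr2b, LPS (0.67), 0.073 for Fcgr2b, JQ1 (0.36), 0.56 for Fcgr2b, IL-10 (0.77), -0.45 for Fcgr3, LPS_JQ1 against LPS_IL10 (-0.38), 0.059 for Fcgr4, JQ1 (0.35), -0.44 for Fcgr4, LPS_JQ1 against LPS_IL10 (-0.36), 0.59 for Fcer1g, LPS (0.82), 0.15 for Fcer1g, JQ1 (0.43) and 0.19 for Fcer1g, IL-10 (0.40). With gene bodies extended by 10 kb the log2 ratio of summed accessibility was -0.35 for Fcgr2b, LPS_JQ1 against LPS (-0.20), -1.31 for Fcgr2b, LPS_JQ1 against LPS_IL10 (-1.04), 0.44 for Fcgr3, LPS_IL10 against LPS (0.33), 0.72 for Fcgr4, LPS (0.44), 0.26 for Fcgr4, LPS_IL10 against LPS (0.35) and -0.32 for Fcgr4, LPS_JQ1 against LPS_IL10 (-0.36). With gene bodies extended by 50 kb the log2 ratio of summed accessibility was 0.50 for Fcgr1, LPS (0.75), -0.085 for Fcgr1, LPS_JQ1 against LPS (-0.45), -0.30 for Fcgr1, LPS_JQ1 against LPS_IL10 (-0.63), 0.70 for Fcgr2b, LPS_IL10 against LPS (0.84), -0.79 for Fcgr2b, LPS_JQ1 against LPS_IL10 (-1.04), 0.17 for Fcgr3, LPS_IL10 against LPS (0.33), -0.21 for Fcgr3, LPS_JQ1 against LPS_IL10 (-0.38), 0.44 for Fcgr4, LPS_IL10 against LPS (0.35), -0.45 for Fcgr4, LPS_JQ1 against LPS_IL10 (-0.36) and 0.57 for Fcer1g, LPS (0.82). The value with all peaks of the 25 kb windows and TMM is in brackets. In an alternative chosen after seeing the data, with strong peaks left out of the sum, it was -0.029 for Fcer1g, LPS_IL10 against LPS without Fcer1g -14.7 and Fcer1g +12.1, -0.077 for Fcgr1, LPS_JQ1 against LPS without Fcgr1 +9.5 and -0.13 for Fcgr1, LPS_JQ1 against LPS_IL10 without Fcgr1 +9.5. Depth was 12020526 counts in peaks or more per library, and no alternative bears on it.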
